A study of Homo sapiens with 6 samples.

Results

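SYK and 9 genes whose products work beside it in immune receptor signalling were followed with 6 Affymetrix U95 Av2 arrays in U373 cells, a line derived from a human glioblastoma. The genes are SYK, ZAP70, LAT, LCP2, BLNK, BTK, TEC, PLCG1, PLCG2 and INPP5D. Every probe set whose platform annotation gives exactly 1 of these symbols was taken, whatever its signal, which gave 14 probe sets of 12558 and 10 genes of the 8226 named ones. SYK had 3 probe sets, PLCG1 and PLCG2 had 2 each, and each other gene had 1. The cells carried a syk construct under an ecdysone-inducible system, which is switched on by ponasterone A (PonA), a plant steroid that mimics an insect moulting hormone.

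The arrays comprised syk-transfected U373 cells given ethanol and PonA at day 1, the same cells given ethanol alone at day 1 and left untreated at day 1, syk-transfected cells given ethanol and PonA at day 2 and left untreated at day 2, and untransfected, untreated U373 cells at day 1. Each condition had 1 array. Untransfected cells with PonA and transfected cells in ethanol alone at day 2 are not among them, so PonA and its solvent cannot be told apart at day 2. The labels give 10 µM PonA for 6 to 48 hours for the series as a whole and do not say whether the transfected cells were 1 clone or a pool. In bulk RNA of this kind, fewer cells that express a gene and less RNA per cell cannot be told apart.

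SYK is a cytoplasmic tyrosine kinase that binds, through paired SH2 domains, to the doubly phosphorylated tyrosine motifs (ITAMs) of immune receptors, and ZAP70 is its relative in T and NK cells. The active kinases phosphorylate scaffolds, LAT and LCP2 (SLP-76) in T cells and BLNK in B cells, on which the Tec family kinases BTK and TEC and the phospholipases C gamma, PLCG1 and PLCG2, assemble to raise calcium and diacylglycerol. INPP5D (SHIP1) is an inositol phosphatase that removes the lipid that draws these proteins to the membrane. PLCG1 is made in most tissues, while LCP2, BLNK, BTK, PLCG2 and INPP5D are known mainly from blood cells.

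The values are MAS5 signal, a background-corrected brightness per probe set on a linear scale. The 40th percentile of each array, between 22.7 and 26.5 signal units, is called the floor here, and a signal under it counts only as a bound. The arrays correlated with each other at a Pearson r of 0.946 to 0.985 over all probe sets on the floored log2 scale. The spike-in controls had a geometric mean of 271 on the ethanol array, against 352 to 501 for the other 4 transfected arrays and 157 for the untransfected one. Its part in the results was not tested, and the members' PonA effects are given with and without it, except that of BTK, which could not be tested without it.

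The labelled cell type was checked against marker genes. Of 8 glial markers on the array, 5 were above the floor on all 6 arrays, and the signals of the 8 summed to 9903 with PonA at day 1, 8122 with ethanol, 8607 untreated at day 1, 9091 with PonA at day 2, 8630 untreated at day 2 and 9453 in untransfected cells. GFAP, the intermediate filament of astrocytes, gave 103 to 229 signal units on the 5 transfected arrays, against 1533 in untransfected cells. SLC1A3, a glutamate transporter gene, gave 193 and 225 with PonA, against 22.8 to 38.8 on the transfected arrays without it and 82.02 in untransfected cells, and it rose with PonA, with a limma log2 effect of 2.88 ± 0.26 (SE, n = 5 arrays, adjusted p = 0.0041). GLUL, the glutamine synthetase gene, had an effect of 0.97 ± 0.22 (adjusted p = 0.0626). VIM, at 4919 to 6458, held most of the summed glial signal on each array. The part of these differences in the members' results was not tested. The defining blood cell markers PTPRC, ITGAM, FCER1G, TYROBP, CD79B, CD3D and CD3G were under the floor on all 6 arrays, and none of them exceeded 10.9 signal units. Over the whole lists, those above the floor on all 6 arrays were CD22 of 6 B cell markers, CD2 and CD3E of 8 T and NK cell markers, CD68 of 8 myeloid and mast cell markers, and LAPTM5 and SPN of 6 pan-haematopoietic markers. In the same order 3, 3, 6 and 3 markers were under it on all 6. Of 3 red cell and platelet markers, HBB (27.8 to 44.0) and ITGA2B (103 to 172) were above the floor on all 6 arrays and PF4 on none. Of 4 neuron markers, MAP2 and TUBB3 (1348 to 2144) were above it on all 6, as was MOG of 2 oligodendrocyte markers. So were COL1A1 and COL1A2 (1653 to 1932) of 4 endothelium and fibroblast markers. The signals of the B cell markers summed to 115 to 134 with PonA, 101 to 191 in transfected cells without it and 123 in untransfected cells. The T and NK cell markers summed to 159 to 244 with PonA, 181 to 259 in transfected cells without it and 214 in untransfected cells, and the myeloid and mast cell markers to 218 to 237, 197 to 300 and 197. The pan-haematopoietic markers summed to 148 to 180 with PonA, 163 to 170 in transfected cells without it and 213 in untransfected cells. For the red cell and platelet markers the sums were 160 to 190, 159 to 209 and 146.

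Of the 14 member probe sets, 4 were above the floor on all 6 arrays, 6 on 2 to 5 arrays and 4 on none. The probe sets above the floor throughout were those of TEC and INPP5D and both of PLCG1. Those under it throughout were those of LCP2 and BLNK, the third SYK probe set and the second PLCG2 probe set. The highest signal of any member was 159, and 2 of the 14 probe sets, of PLCG1 and LAT, passed 100 on any array. At such signals 1 array against 1 array is imprecise. Among the 1755 probe sets with a mean signal of 50 to 100, measured on both the ethanol and the untreated array of day 1, 1 in 10 differed by at least 0.72 on the log2 scale, or 1.65-fold, and among 1124 probe sets with a mean of 25 to 50 the same mark was 0.69.

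**Figure D1:**
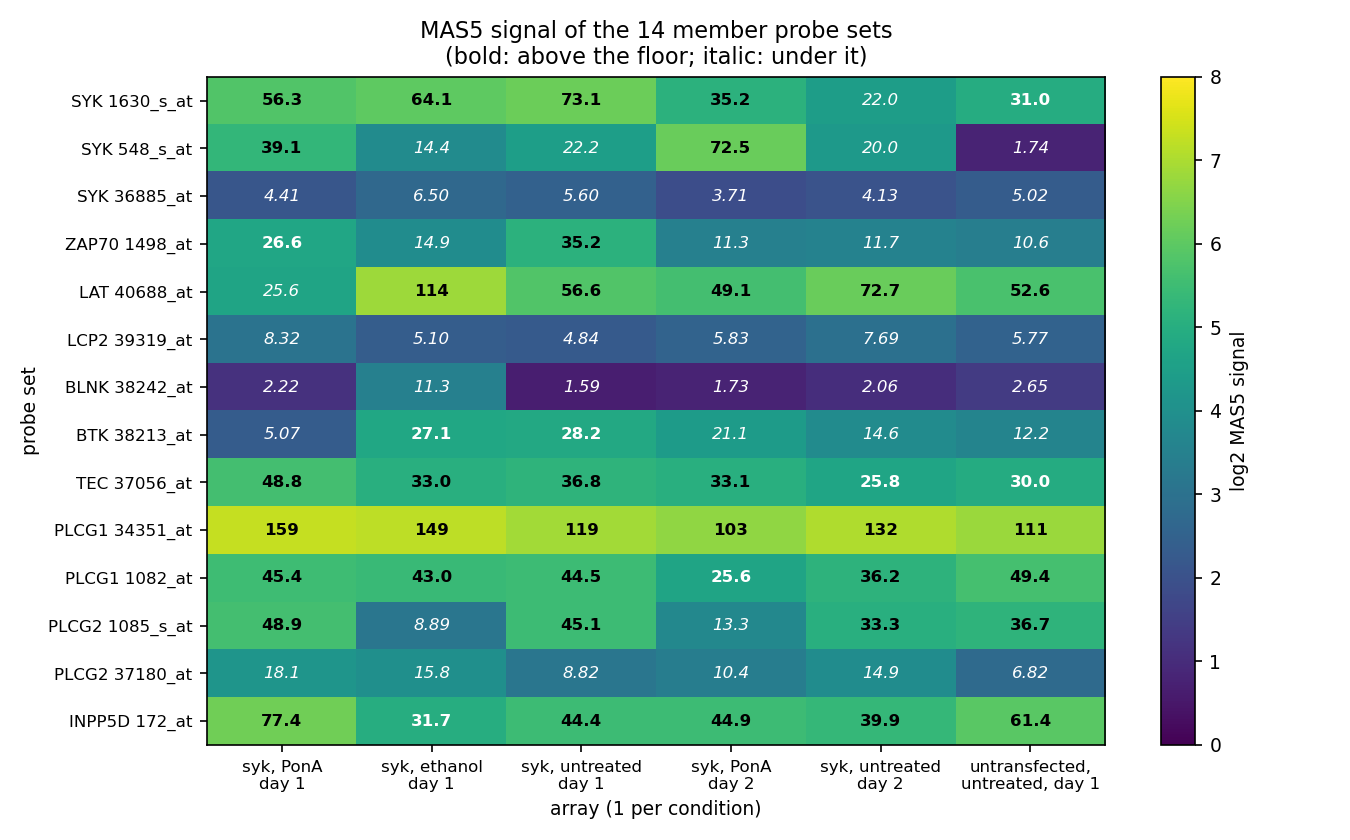
MAS5 signal of the 14 member probe sets (rows) on the 6 arrays (columns, 1 array per condition), with colour on a log2 scale and the signal printed in each cell. Bold values lie above the floor of their array and italic ones under it. The rows of LCP2, BLNK, the third SYK probe set (36885_at) and the second PLCG2 probe set (37180_at) are under the floor throughout, and both PLCG1 rows are above it throughout.

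The 3 probe sets of SYK, the gene of the construct, gave 3 different patterns. On probe set 548_s_at the PonA arrays gave 39.1 at day 1 and 72.5 at day 2, against 14.4 in ethanol and 22.2 untreated at day 1, and 20.01 untreated at day 2. It gave 1.74 in untransfected cells. Both PonA arrays are above their floors and all 4 arrays without PonA are under theirs. The share of all probe sets on which the PonA arrays separate from the others is not given, for this or any gene below. Such an order of arrays is a description only.

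With the controls at the floor, its bounds with PonA at day 1 were at least 1.54-fold over ethanol and at least 1.49-fold over no treatment. At day 2 the bound over untreated cells was at least 3.12-fold. The PonA array of day 2 was 1.86-fold that of day 1, with both arrays above the floor. In transfected, untreated cells at day 1 (22.2) and in untransfected cells (1.74) the probe set was under the floor on both sides, and no fold is given for that pair.

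An additive limma model, with PonA and day as its terms, was fitted to the 5 transfected arrays to give 1 PonA effect for both days. The probe set 548_s_at entered it only through its PonA arrays, and its control values are all floors, so the fit describes a contrast with floors and its SE leaves out the scatter of the control signals. On those terms the effect was 1.04 ± 0.26 on the log2 scale (SE, limma), with PonA higher in all 3 comparisons, and it did not pass the threshold of 0.05 after Benjamini-Hochberg adjustment over the 7934 probe sets tested (adjusted p = 0.0803). Neither this outcome nor its changes below are support for a response of SYK beyond the bounds above. Limma gave 1.11 ± 0.27 without the ethanol array (adjusted p = 0.0321), 1.13 ± 0.27 without the untreated array of day 1 (adjusted p = 0.0424) and 0.60 ± 0.26 without the untreated array of day 2 (adjusted p = 0.422).

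The probe set 1630_s_at followed another course. On it the PonA arrays gave 56.3 at day 1 and 35.2 at day 2, against 64.1 in ethanol and 73.1 untreated at day 1, and 22.0 untreated at day 2. It gave 31.0 in untransfected cells. The PonA array was the lowest transfected one of day 1 and the higher one of day 2, and all 3 transfected arrays of day 1 lie above both of day 2.

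In transfected, untreated cells at day 1 its signal was 2.35-fold that of untransfected cells, both above the floor, with no replicate check. In untreated cells of day 2 it was at least 3.15-fold lower than in those of day 1, under the floor of 23.2. Its PonA effect over both days in limma was 0.10 ± 0.24 (SE, 95% interval -0.48 to 0.68, adjusted p = 0.877), or 0.11 without the ethanol array. Without the day 2 PonA array or without the day 2 untreated array, which leave the day 1 comparison to set the effect, it was -0.28 (adjusted p of 0.825 and 0.808).

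The third probe set, 36885_at, gave 4.41 with PonA at day 1 and 3.71 with PonA at day 2, against 6.50 in ethanol, 5.599 untreated at day 1 and 4.13 untreated at day 2. It gave 5.02 in untransfected cells. All 6 values lie under the floor, so this probe set gives no measured SYK level in any condition. Across the 6 arrays the log2 signals of 548_s_at and 1630_s_at correlated with a Pearson r of 0.21, as a description over arrays of which only the 2 PonA arrays had both above the floor. The suffix _s_at is Affymetrix's mark for a probe set whose probes can match more than 1 transcript. Which stretch of the SYK transcript each probe set reads, and whether the construct carries that stretch, was not analysed here.

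**Figure D2:**
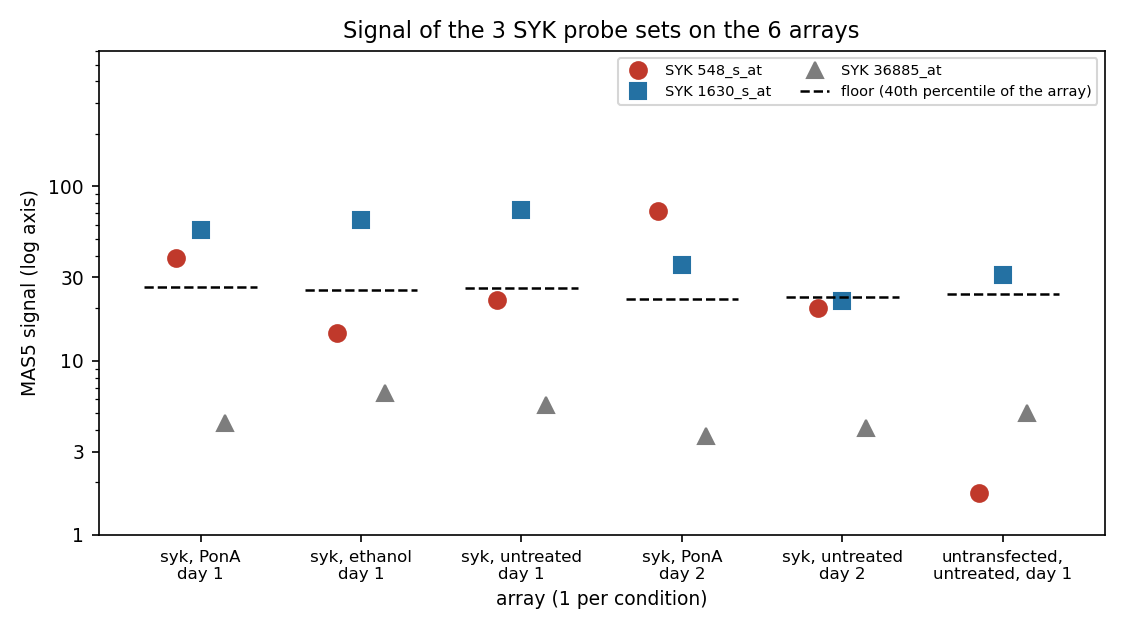
MAS5 signal (log axis) of the 3 SYK probe sets on the 6 arrays, 1 array per condition, with a dashed line for the floor of each array. The circles (548_s_at) are above the floor on the PonA arrays only, at 39.1 and 72.5, the squares (1630_s_at) are highest on the 3 transfected arrays of day 1, and the triangles (36885_at) stay at 6.50 or less.

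A PonA-by-day term in limma tested for a difference in response between day 1 and day 2, and leaves 1 residual degree of freedom. For 548_s_at the term was 1.05 ± 0.39 (SE), larger at day 2. All control values of that probe set are floors, so its SE leaves out the scatter of the control signals, and its p-value is not given. For 1630_s_at the term was 0.88 ± 0.40. None of the 10 tested members passed after adjustment. Only 548_s_at had an unadjusted p under 0.05, and it is not counted because of its floors. Over all 7934 probe sets the term called 0 (0%), with 330 (4.16%) at an unadjusted p under 0.05.

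ZAP70, the relative of SYK in T cells, had 1 probe set, near the floor. It gave 26.6 with PonA at day 1 and 11.3 with PonA at day 2, against 14.9 in ethanol and 35.2 untreated at day 1, and 11.7 untreated at day 2. Untransfected cells gave 10.6. It was above the floor with PonA and untreated at day 1 only. The PonA value of day 1 lies between the ethanol and untreated values of that day, and that of day 2 is under the floor.

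At day 1 its PonA signal was 0.757 times that of untreated cells and at least 1.05-fold that with ethanol, and at day 2 both arrays were under the floor. Its effect over both days in limma was -0.11 ± 0.20 (SE, 95% interval -0.60 to 0.38, adjusted p = 0.835), or -0.22 without the ethanol array (adjusted p = 0.631). With the floor at the 20th percentile the sign turned, to 0.10, and with log2(signal + 16) in place of a floor it turned to 0.049.

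Of the scaffolds, LAT, the membrane-bound platform of T cell receptor signalling, had the lowest PonA effect of the members. Its signal was 25.6 with PonA at day 1 and 49.1 with PonA at day 2, against 114 in ethanol and 56.6 untreated at day 1, and 72.7 untreated at day 2. Untransfected cells gave 52.6. Both PonA arrays are below all 3 transfected arrays without PonA, a description only, as the share of all probe sets with such an order is not given. The PonA array of day 1 is under the floor of 26.5.

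At day 1 LAT was at least 4.31-fold lower with PonA than with ethanol and at least 2.14-fold lower than in untreated cells. At day 2 it was 1.48-fold lower than in untreated cells, with both arrays above the floor. The ethanol array was itself 2.02-fold above the untreated array of the same day. The effect over both days in limma was -1.16 ± 0.37 (SE, 95% interval -2.04 to -0.27, lower in 3 of 3 comparisons, adjusted p = 0.146), which did not pass. Without the ethanol array it was smaller in size with a smaller SE, at -0.83 ± 0.22 (limma, adjusted p = 0.0474), in a fit that called 9.34% of all probe sets. With the floor at the 60th percentile it was -0.22 (adjusted p = 0.613).

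LCP2, the cytosolic scaffold that LAT recruits, gave 8.32 with PonA at day 1 and 5.83 with PonA at day 2, against 4.84 to 7.69 on the transfected arrays without PonA and 5.77 in untransfected cells. BLNK, its B cell counterpart, gave 2.22 and 1.73 with PonA, against 1.59 to 11.3 on the transfected arrays without it and 2.65 in untransfected cells. Both stayed under the floor on all 6 arrays and were not tested. Neither gave a measured level in any condition.

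The Tec family kinases differed in whether they were measurable. BTK, the kinase whose loss causes X-linked agammaglobulinaemia, gave 5.07 with PonA at day 1 and 21.1 with PonA at day 2, against 27.1 in ethanol and 28.2 untreated at day 1, and 14.6 untreated at day 2. Untransfected cells gave 12.2. Only the ethanol and untreated arrays of day 1 exceeded the floor, by 1.07-fold at most, so its limma effect of -0.05 ± 0.16 (SE, adjusted p = 0.915) is one between values at or next to the floor. It was -0.78 with the floor at the 20th percentile (adjusted p = 0.583) and -0.48 with log2(signal + 16) (adjusted p = 0.435).

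TEC, the founding member of the family, was above the floor on every array. Its signal was 48.8 with PonA at day 1 and 33.1 with PonA at day 2, against 33.0 in ethanol and 36.8 untreated at day 1, and 25.8 untreated at day 2. Untransfected cells gave 30.002. Within each day the PonA array was the highest, but the PonA value of day 2 lies inside the day 1 control values.

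The TEC differences were 0.56 over ethanol, 0.41 over untreated at day 1 and 0.36 over untreated at day 2 on the log2 scale, and both day 1 differences use the same PonA array. Each is under the 0.69 that 1 in 10 probe sets of 25 to 50 signal units reached between ethanol and untreated cells. That mark leaves out probe sets under the floor on either array, so it can understate the scatter near the floor. The effect over both days in limma was 0.43 ± 0.17 (SE, 95% interval 0.02 to 0.84, unadjusted p = 0.0407), which did not pass (adjusted p = 0.228). Without the ethanol array it was 0.38 (adjusted p = 0.323). TEC kept its sign under all 10 alternatives, at 0.30 to 0.49.

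The phospholipases C gamma differed in how often they exceeded the floor. PLCG1, the form made in most tissues, was above the floor on all 6 arrays with both probe sets. The probe set 34351_at gave 159 with PonA at day 1 and 103 with PonA at day 2, against 149 in ethanol, 119 untreated at day 1 and 132 untreated at day 2, and 111 in untransfected cells. The PonA arrays hold both its highest and its lowest value.

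The second PLCG1 probe set, 1082_at, gave 45.4 with PonA at day 1 and 25.6 with PonA at day 2, against 43.0 in ethanol, 44.5 untreated at day 1 and 36.2 untreated at day 2, and 49.4 in untransfected cells. Both probe sets had their lowest value with PonA at day 2, at -0.36 and -0.50 against untreated cells on the log2 scale. The limma effects over both days were -0.01 ± 0.22 (SE, adjusted p = 0.989) for 34351_at and -0.18 ± 0.20 (adjusted p = 0.677) for 1082_at, and neither passed. Without the ethanol array they were 0.027 and -0.24.

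PLCG2, the form of B cells and myeloid cells, gave 48.9 with PonA at day 1 and 13.3 with PonA at day 2 on probe set 1085_s_at, against 8.89 in ethanol and 45.1 untreated at day 1, and 33.3 untreated at day 2. Untransfected cells gave 36.7. The ethanol array and the PonA array of day 2 are under the floor and the other 4 arrays are above it. The signal with PonA at day 1 was at least 1.93-fold that with ethanol but 1.08-fold that of untreated cells, and with PonA at day 2 it was at least 1.47-fold lower than untreated.

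The limma effect was 0.07 ± 0.34 (SE, 95% interval -0.75 to 0.89, adjusted p = 0.944), and without the ethanol array it was -0.22. The second PLCG2 probe set, 37180_at, gave 18.1 and 10.4 with PonA, against 8.82 to 15.8 on the transfected arrays without it and 6.82 in untransfected cells, all under the floor. The 2 PLCG2 probe sets therefore disagree on whether the transcript was above the floor.

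INPP5D, the phosphatase that opposes this pathway, gave 77.4 with PonA at day 1 and 44.9 with PonA at day 2, against 31.7 in ethanol and 44.4 untreated at day 1, and 39.9 untreated at day 2. Untransfected cells gave 61.4, higher than every transfected array but that with PonA at day 1. The PonA arrays are the highest of the 5 transfected ones, but the lower of them exceeds the untreated array of day 1 by less than 1 signal unit. That order too is a description only, given without the share of all probe sets that have it.

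At day 1 INPP5D was 2.44-fold higher with PonA than with ethanol and 1.74-fold higher than in untreated cells, and at day 2 it was 1.12-fold higher than in untreated cells. Its limma effect was 0.67 ± 0.27 (SE, 95% interval 0.03 to 1.31, unadjusted p = 0.0429) and did not pass (adjusted p = 0.237). It was 0.49 without the ethanol array, 0.17 when PonA at day 1 was left out and 1.05 without either array of day 2.

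Over the 14 probe sets, 10 had enough values above the floor to be tested, and they stand for 8 of the 10 genes. SYK 548_s_at exceeded the floor on the PonA arrays only and BTK on arrays without PonA only, so passing that filter already set their groups apart. The counts at an unadjusted p in the additive fit leave both out. None passed the threshold in limma, against 402 of all 7934 probe sets tested (5.07%), 2.70% higher and 2.37% lower with PonA. Of the 8 probe sets above the floor both with and without PonA, 3 had an unadjusted p under 0.05, TEC and INPP5D with higher values and LAT with lower ones, and 19.5% of all probe sets tested had one. The median effect of these 8 was 0.03, with 4 positive and 4 negative, and that of all probe sets tested was 0.01. The values over all probe sets tested are not limited to those above the floor both with and without PonA, so the sets are unlike. Each probe set's own spread has 2 residual degrees of freedom. They hold the gap from ethanol to untreated cells at day 1 and the gap in PonA effect from day 1 to day 2. In limma that spread is drawn, with 4.48 prior degrees of freedom, towards a value estimated over all probe sets tested, and the p-values rest on both. Nothing says that the arrays came from separate cultures.

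**Figure D3:**
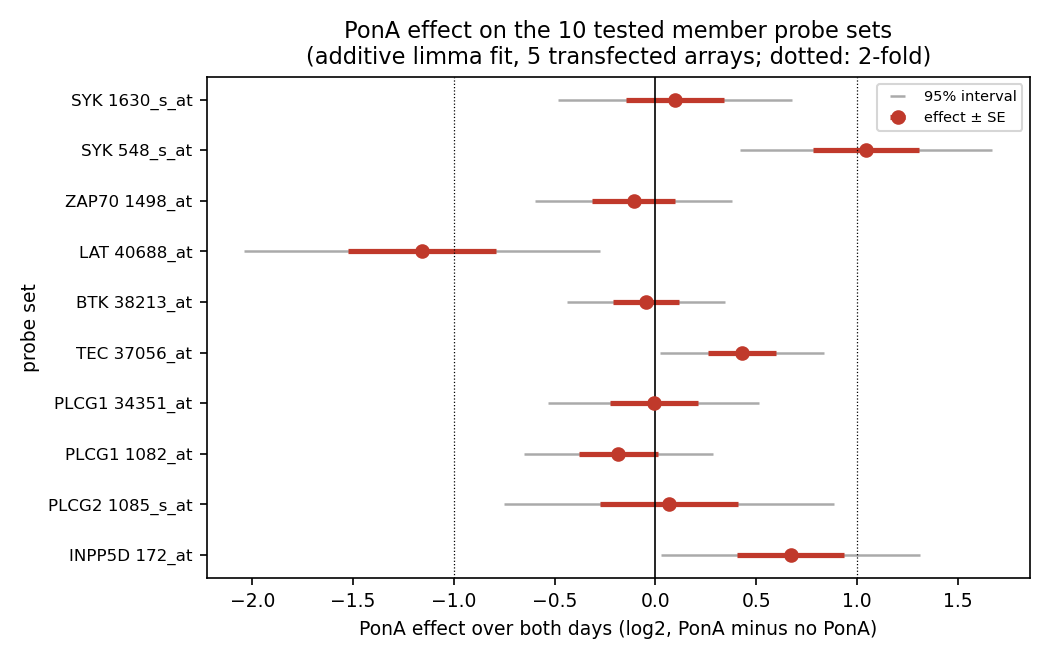
PonA effect over both days (log2, PonA minus no PonA) of the 10 tested member probe sets from the additive limma fit over 5 transfected arrays, with thick bars for the SE and thin bars for the 95% interval, unadjusted for the number of probe sets. The intervals of TEC and INPP5D lie above 0 and that of LAT below it, that of SYK 548_s_at is against controls at the floor, and none passed after adjustment.

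Single arrays were also set against each other by size, without replicates and so without a p-value. With PonA over ethanol at day 1, 2 of the 10 members with a value were at least 2-fold apart, INPP5D higher and LAT lower, against 5.62% of all probe sets, 3.23% higher and 2.40% lower. Against untreated cells at day 1 it was 1 of 10, LAT, lower, against 6.71% of all probe sets, 3.58% higher and 3.12% lower. Against untreated cells at day 2 it was 1 of 8, SYK 548_s_at, higher, against 8.71% of all probe sets, 4.67% higher and 4.04% lower. No member was 2-fold apart in all 3, and both day 1 comparisons use the same PonA array. The members' median differences were 0.09, 0.07 and -0.10 on the log2 scale, against 0.03, 0.002 and -0.01 over all probe sets with a value.

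**Figure D4:**
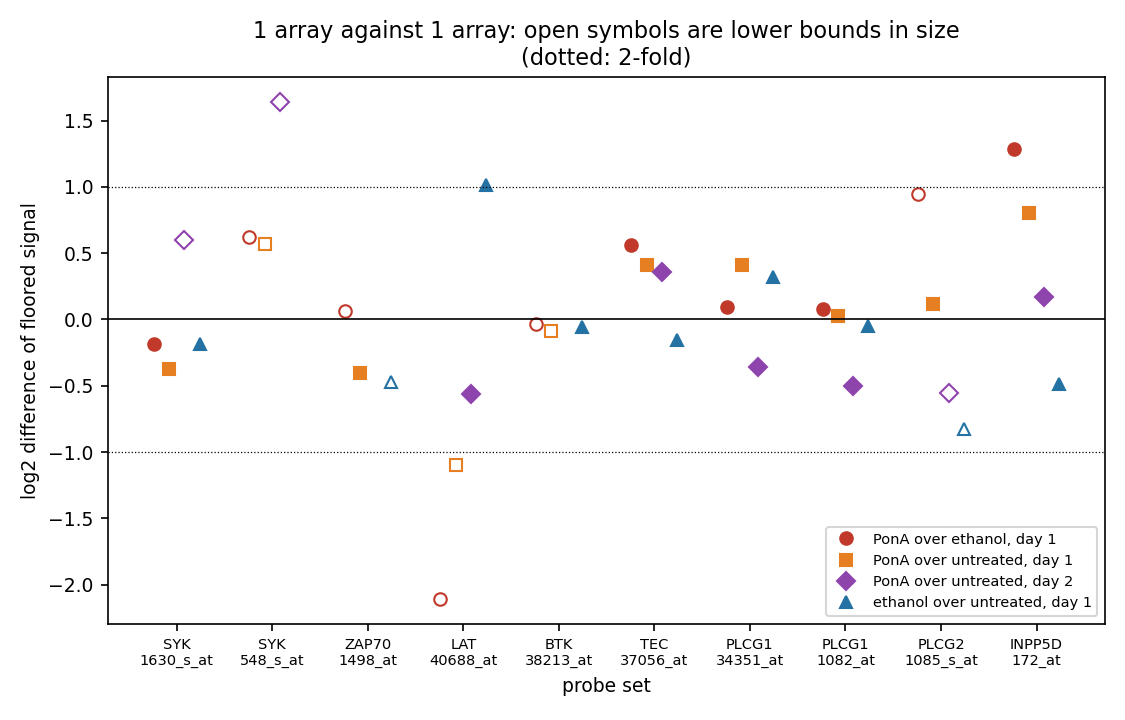
Log2 differences of floored signal between single arrays for the 10 tested member probe sets, for PonA at day 1 against ethanol and against no treatment, PonA at day 2 against no treatment, and ethanol against no treatment. Filled symbols are measured on both arrays, open ones are lower bounds in size because 1 side lies at the floor, and no symbol is drawn where both do. LAT is the member that lies past the 2-fold line in both comparisons of PonA at day 1, and its ethanol array lies 1.01 above the untreated one.

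The other pairs of arrays gave 1 member each past 2-fold. With ethanol over untreated at day 1 it was LAT, higher, among 9 members with a value, against 2.18% of all probe sets, 1.04% higher and 1.15% lower. In transfected over untransfected cells, both untreated at day 1, it was SYK 1630_s_at, higher, among 9, against 5.72%, 3.08% higher and 2.64% lower. In untreated cells of day 2 over day 1 it was SYK 1630_s_at, lower, among 9, against 3.19%, 1.04% higher and 2.15% lower. With PonA at day 2 over day 1 it was PLCG2 1085_s_at, lower by at least 2.15-fold, among 9, against 2.93%, 0.882% higher and 2.05% lower. For day 2 over day 1, the median of the 9 members with a value was -0.63 with PonA and -0.30 in untreated cells. Over all probe sets with a value it was -0.07 and -0.06. The floors of day 2, 22.7 with PonA and 23.2 untreated, lay below those of day 1, 26.5 and 26.3. For a member at the floor on day 2, the lower floor enters the difference. Both medians, however, are those of PLCG1 probe sets above the floor on both arrays. They are 34351_at with PonA, from 159 to 103, and 1082_at in untreated cells, from 44.5 to 36.2. The cause of the lower values was not tested. The 3' to 5' ratio of beta-actin was 1.198 with PonA and 1.214 untreated at day 2, against 0.960 to 0.987 on the 4 arrays of day 1, and its part in these differences was not tested.

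The genes that work around SYK were described from a list of 95, none of them members: ITAM receptors and their partners, adaptors, exchange factors, further kinases, lipid enzymes, phosphatases and outputs. Of these, 79 had a probe set and 48 were tested, with the probe set of highest mean signal standing for each gene. After adjustment over all probe sets tested, limma called none of the 48, against 5.07% of those, and 13 had an unadjusted p under 0.05, against 19.5%. The median effect was 0.07, with 31 positive and 17 negative. Of the 17 ITAM receptors and partners on the array, 11 were under the floor on all 6 arrays, among them FCER1G and TYROBP, the adaptor chains that carry ITAMs in myeloid cells, and 4 were tested.

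The 5 largest effects on this list missed the threshold. ITPKB, the kinase that phosphorylates the calcium-releasing inositol phosphate, gave 298 with PonA at day 1 and 326 at day 2, against 208 in ethanol, 159 untreated at day 1 and 114 untreated at day 2, an effect of 1.06 ± 0.25 (SE, limma, adjusted p = 0.0655). Both PonA values exceed all 4 arrays without PonA, untransfected cells (170) included, again a description without the share of all probe sets with such an order.

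SOS1, an exchange factor that activates RAS, gave 64.3 and 60.6 with PonA, against 41.7 in ethanol and 30.2 untreated at day 2. Untreated cells of day 1 gave 7.76, in place of which the fit used the floor of 26.3. The effect was 0.98 ± 0.24 (limma, adjusted p = 0.0731). The second SOS1 probe set had an effect of 0.52 ± 0.24 (limma, adjusted p = 0.314). On it the day 1 controls were in the other order, at 14.5 in ethanol and 41.5 untreated, against 47.2 with PonA at day 1. CD2AP, an adaptor between membrane receptors and the actin cytoskeleton, had an effect of 0.64 ± 0.21 (adjusted p = 0.156).

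ITPR3, a calcium release channel of the endoplasmic reticulum, gave 202 and 167 with PonA, against 299 in ethanol, 337 untreated at day 1 and 333 untreated at day 2, an effect of -0.80 ± 0.18 (limma, adjusted p = 0.0614). Its second probe set had -0.76 ± 0.19 (adjusted p = 0.0754), so both gave lower values with PonA. CDC42 had an effect of -0.97 ± 0.31 on 1 probe set (adjusted p = 0.153), while its other 2 probe sets were not tested.

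**Figure D5:**
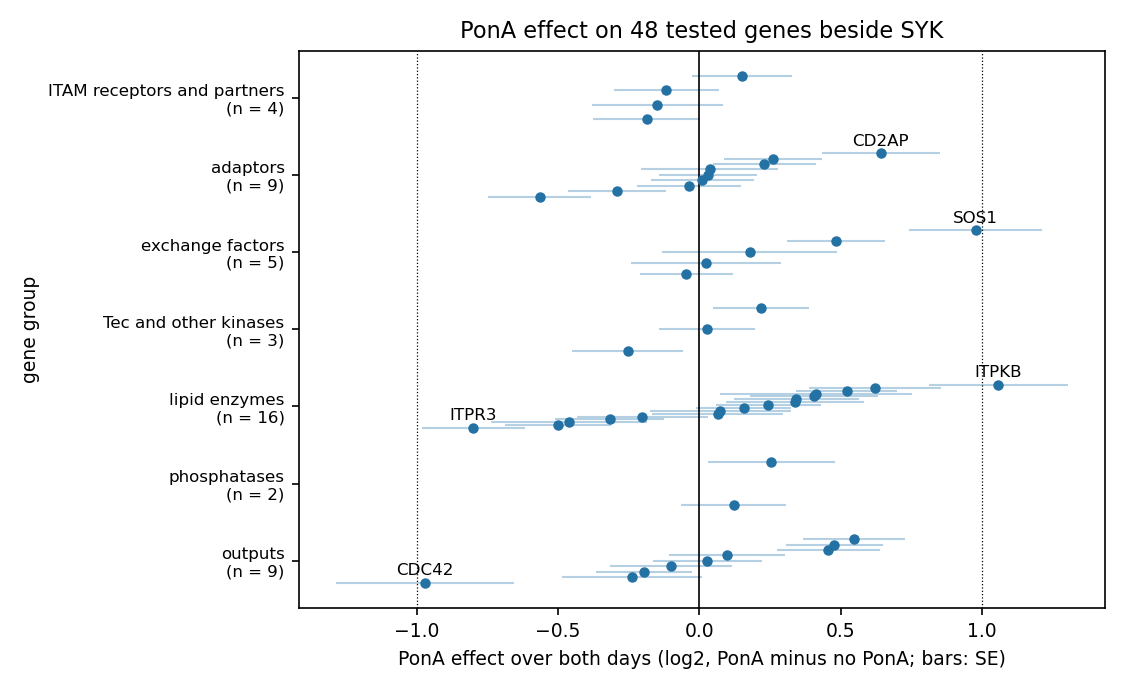
PonA effect over both days (log2, PonA minus no PonA) of the 48 tested genes of the list, 1 point per gene with its SE from the additive limma fit, grouped by role, with the number tested in each group. The 5 largest effects are named, and none of the 48 passed the adjusted threshold.

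The probe sets whose pattern over the 6 arrays was most like that of SYK 548_s_at were those of DUSP4, HTR2A, PPP1R12B, TNFSF4 and KCNJ6, with a Pearson r of 0.994 to 0.999 on the floored log2 scale among 7177 candidates. DUSP4, a MAP kinase phosphatase gene, gave 38.5 with PonA at day 1 and 64.6 with PonA at day 2, against 2.497 to 4.067 on the other transfected arrays and 15.01 in untransfected cells. 4 of these 5 probe sets, all but that of PPP1R12B, were likewise above the floor on the PonA arrays only, so the 4 other values of each are floors. An r above 0.9 was reached by 218 candidates (3.04%).

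For SYK 1630_s_at the most similar were PIEZO1, CALCOCO1, RDX, MKNK2 and MXRA5, with r of 0.983 to 0.990. PIEZO1, a mechanically gated channel gene, gave 646 with PonA, 687 with ethanol and 687 untreated at day 1, 520 with PonA and 470 untreated at day 2, and 520 in untransfected cells. An r above 0.9 was reached by 109 candidates (1.52%). The lists of 5 for the 2 SYK probe sets share no gene. These likenesses are over 6 arrays that share a scaling and a day structure, and they are descriptions with no test.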

How the data were processed

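Messenger RNA of U373 cells was measured on 6 arrays, 1 per condition, with groups taken from the labels. Intensity was deposited by the authors as MAS5 signal on a linear scale, per the submitters' processing notes. The sources used here do not give MAS5's version, its detection calls or a genome build. The mean per array, without the lowest and highest 2% of all probe sets, lay between 150.07 and 150.08, so no further scaling was applied. Symbols came from the platform annotation, updated by Entrez identifier through a RefSeq gene table. A single symbol was given for 10943 of 12558 probe sets, several for 545 and none for 1070, and 67 control probe sets were left out. Of the 10943, 10934 matched that table. No probe set with several symbols named a member.

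Each array's 40th percentile served as its floor: lower values were raised to it, and log2 was taken. limma 3.58.1 in R 4.3.3 was fitted over all probe sets that exceeded the floor on 2 or more of the 5 transfected arrays, with Benjamini-Hochberg adjustment over all of them and a threshold of 0.05. eBayes added 4.48 prior degrees of freedom to the 2 residual ones. The fit was tested on simulated data. The alternatives were other floors, log2(signal + 16), quantile normalization, no filter, leaving out each array and all 6 arrays. Named beside the members were the 5 listed pathway genes of largest effect and the 5 probe sets most like each SYK probe set above the floor on at least 2 arrays. The members and lists were chosen with earlier results of these data known. The number of arrays limits the precision.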

Additional observations from a re-analysis of the deposited data

Results flagged for a closer look

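For 4 member probe sets the PonA difference went one way at day 1, against both ethanol and untreated cells, and the other way at day 2. SYK 1630_s_at was at -0.37 on the log2 scale with PonA over untreated at day 1 and at least 0.60 at day 2. PLCG1 34351_at was at 0.41 and -0.36, PLCG1 1082_at at 0.029 and -0.50, and PLCG2 1085_s_at at 0.12 and, as a bound, -0.55. The PonA-by-day term in limma had adjusted p of 1.00 for each of them and unadjusted p of 0.0652, 0.190, 0.2004 and 0.0990, on 1 residual degree of freedom, so the difference between the days was not shown.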

How the results depend on the processing

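No paired analysis was possible because each group has 1 array and the labels carry no replicate numbers. Of 96 values of the 10 tested members under the alternatives, 80 kept their sign and their side of the threshold, 4 passed it and 12 changed sign. Of these 4, 1 was of LAT and the rest were of SYK 548_s_at. The filter let SYK 548_s_at into those fits only through its PonA arrays, so its passes are not support for a response. It was at 0.95 with log2(signal + 16) (limma, adjusted p = 0.0441), and ranged from 0.60 to 1.13 when single arrays were left out. It could not be tested without either PonA array or with the floor at the 60th percentile, which left it above the floor on fewer than 2 arrays. LAT passed without the ethanol array only, and was at -1.60 to -0.57 over the single arrays left out, and at -0.22 with the floor at the 60th percentile. BTK ranged from -0.78 to -0.01. SYK 1630_s_at ranged from -0.28 to 0.60, PLCG1 34351_at from -0.36 to 0.25, PLCG1 1082_at from -0.50 to 0.055 and PLCG2 1085_s_at from -0.55 to 0.53. PLCG1 34351_at was at 0.060 with all 6 arrays, and ZAP70 at 0.10 with the floor at the 20th percentile and 0.049 with log2(signal + 16).

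The count of 402 probe sets called was 107 with the floor at the 20th percentile, 29 with no filter and 111 to 725 when single arrays were left out. The PonA-by-day term called 0 probe sets under every alternative run for it, the floor at the 20th percentile, log2(signal + 16) and quantile normalization. Of probe sets 2-fold apart, the floors at the 20th and 60th percentile gave 1064 and 210 for PonA over ethanol, 1241 and 266 for PonA over untreated at day 1, 1337 and 402 at day 2, and 861 and 29 for ethanol over untreated. They gave 1329 and 167 for transfected over untransfected cells, 1017 and 62 for untreated cells of day 2 over day 1, and 773 and 62 for PonA. The cause was not tested.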
